A study of Mus musculus with 15 samples.

Results

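The 7 genes described here are Malat1, Miat, Meg3, Rian, Mirg, Kcnq1ot1 and Snhg11, long noncoding RNAs that stay in the nucleus, come from imprinted domains or host small RNAs. They were read from every probe set that the array's annotation assigns to that symbol and to no other gene. The array held 34 such probe sets among 45101, of which 34945 belonged to a single gene. A probe set was tested if its log2 value exceeded 5, the limit used here for signal over background, on at least 3 of the 15 arrays. This kept 29 of the 34 member probe sets and 15381 probe sets in all, from 9672 of 18193 genes. By gene, 11 of 11 probe sets passed for Meg3, 6 of 7 for Malat1, 4 of 4 for Rian, 3 of 6 for Kcnq1ot1, 2 of 2 for Mirg, 2 of 2 for Snhg11 and 1 of 2 for Miat. A probe set could pass through a single age at which it was high.

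RNA came from mice of the transgenic G42 line at 5 ages, postnatal day (P) 7, P10, P15, P25 and P40, with 3 animals at each age and 1 array per animal. The oldest group covered animals up to P45. Fluorescent neurons of the primary somatosensory cortex (S1) were picked by hand from dissociated slices, pooled within the animal, amplified in 2 rounds of T7 transcription and hybridized to Affymetrix whole-genome mouse arrays. In G42 mice a Gad1 promoter drives green fluorescent protein in a subset of parvalbumin-class basket interneurons, so each array describes the cells that the transgene marked at that age and not all interneurons. All groups carried the transgene, and the ages are the only condition that differs by label.

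Malat1 is a nuclear RNA of splicing speckles, and Miat, also called Gomafu, is a neuron-enriched nuclear RNA that binds splicing factors. Meg3, Rian and Mirg lie one after another on the maternally expressed strand of the Dlk1-Dio3 imprinted domain, where Rian carries small nucleolar RNAs and Mirg a large cluster of microRNAs. Kcnq1ot1 is expressed from the paternal chromosome, antisense to the potassium channel gene Kcnq1, and keeps neighbouring genes silent on that chromosome. Snhg11 is a small nucleolar RNA host gene with high expression in neurons.

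Between 23 and 85 cells were picked per animal, with the fewest at P15, where the number ran from 23 to 45. Pvalb, the calcium-binding protein of this interneuron class, read 3.62 ± 0.72 (SD, n = 3) at P7, which is background, and reached 14.42 on its highest array. Gad1 and Slc32a1, which make and package GABA, were high on every array. Of the other markers listed for the parvalbumin class, Gad2, Kcnc1, Lhx6 and Syt2 exceeded 5 on all 15 arrays, but Erbb4 on 1 only. Vip, a peptide of another interneuron class, stayed under 5 on all 15. Of the other markers of such classes, Npy, Cck and Reln exceeded 5 on all 15 arrays, Sst on 14 and Calb2 and Lamp5 on 1 each. Of 6 excitatory neuron markers 5, among them the glutamate transporter Slc17a7, stayed under 5 on every array. The remaining marker, the kinase Camk2a, exceeded 5 on 14 arrays, with 5.38 ± 0.36 at P7, 8.20 ± 0.41 at P25 and 7.47 ± 0.16 at P40. The hybridization controls, 16 probe sets for RNA added before hybridization, were at background on P15 replicates 2 and 3, with means of 2.50 and 2.48, while no further array was under 9.31. The actin 3′ probe set was lowest at P25, with 12.70, 11.00 and 12.88 on the 3 arrays, against 13.37 or more at every other age. The Gapdh 3′ probe set was not low there, with 14.52, 14.59 and 14.70, against 14.01, 14.04 and 14.21 at P7. The difference between the 3′ and 5′ actin probe sets, a measure of how far amplified RNA reaches from its 3′ end, ran from 4.64 to 6.41 at P7 and from 3.40 to 4.50 at P40. Oligodendrocyte markers were highest at P25: the log2 values of 6 markers summed to 35.1 to 39.5 there, against 25.6 to 32.1 at the other ages. Mbp, the myelin basic protein, read 11.21 ± 0.63 at P25 and 6.52 ± 1.37 at P40. Mobp, another myelin protein, read 7.47 ± 1.03 at P25 and was under 5 on the 12 arrays of the other ages. Cnp exceeded 5 on all 15 arrays and was highest at P7, with 10.75 ± 0.23 against 9.79 ± 0.67 at P25, while Mog, Mag and Cldn11 stayed under 5 on all arrays. Astrocyte markers, 5 of 7 of which passed the filter, summed to 26.7 to 38.2 at P10 and 28.4 to 41.2 at P25, against 20.7 to 27.7 at the other ages, and Gfap stayed under 5 throughout. Of 7 microglia markers, Csf1r exceeded 5 on 3 arrays, C1qb on 2 and the rest on none.

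Between P7 and P40 Miat changed most, and Snhg11 changed in the same direction on every probe set. Malat1 and Meg3 gave probe sets that moved in opposite directions. The start regions of these 4 genes are printed for that reason. Each is the RefSeq GRCm38.p6 window from 250 bases before to 50 bases after an annotated start, 5′ to 3′ on the gene's own strand. Capitals mark the letters of 4 motifs searched on both strands: the full cAMP response element TGACGTCA, its shorter core TGACG or CGTCA, the TATA box TATAAA or TTTATA, and the CCAAT box CCAAT or ATTGG. The core lies inside the full element. The Miat window is chr5:112228899-112229198 on the minus strand, the Snhg11 window chr2:158375463-158375762 on the plus strand, the Malat1 window chr19:5802623-5802922 on the minus strand and the first Meg3 window chr12:109540746-109541045 on the plus strand.
Miat: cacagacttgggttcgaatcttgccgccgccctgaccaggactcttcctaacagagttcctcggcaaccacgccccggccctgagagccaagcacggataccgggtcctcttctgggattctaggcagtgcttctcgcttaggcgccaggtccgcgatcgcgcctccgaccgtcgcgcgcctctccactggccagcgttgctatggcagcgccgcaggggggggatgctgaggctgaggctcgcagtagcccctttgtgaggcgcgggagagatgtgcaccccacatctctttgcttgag
Snhg11: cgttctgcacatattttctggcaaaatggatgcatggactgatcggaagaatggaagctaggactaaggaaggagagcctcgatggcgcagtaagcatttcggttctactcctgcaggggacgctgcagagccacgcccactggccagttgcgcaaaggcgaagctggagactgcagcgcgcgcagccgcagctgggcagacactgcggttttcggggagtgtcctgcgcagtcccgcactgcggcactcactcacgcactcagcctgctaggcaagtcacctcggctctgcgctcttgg
Malat1: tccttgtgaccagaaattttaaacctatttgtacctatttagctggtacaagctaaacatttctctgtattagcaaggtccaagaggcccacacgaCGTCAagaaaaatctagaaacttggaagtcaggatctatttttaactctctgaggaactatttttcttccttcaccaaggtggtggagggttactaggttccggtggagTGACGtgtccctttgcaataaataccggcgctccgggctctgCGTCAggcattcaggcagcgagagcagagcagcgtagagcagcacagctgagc
Meg3: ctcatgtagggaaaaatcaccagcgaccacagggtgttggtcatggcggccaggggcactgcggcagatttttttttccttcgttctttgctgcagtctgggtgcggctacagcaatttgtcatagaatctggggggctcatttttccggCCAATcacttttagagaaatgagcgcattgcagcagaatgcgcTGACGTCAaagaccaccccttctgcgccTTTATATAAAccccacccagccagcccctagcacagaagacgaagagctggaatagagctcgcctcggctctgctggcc

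The Miat and Snhg11 windows held 25 and 21 CpG dinucleotides and none of the 4 motifs. Over the 32851 promoter windows of the same length in the table, the median was 7 CpG, with quartiles at 3 and 20. The Malat1 window held 10 CpG and 3 copies of the core, starting 154, 45 and 3 bases before the annotated start. The Meg3 window held 13 CpG, a full element starting 57 bases before the start, a TATA box on each strand within 29 bases of it and a CCAAT box 100 bases before it. Of all windows, 1.79% held the full element, 20.8% the core, 13.6% a TATA box and 37.4% a CCAAT box. RefSeq lists a later Meg3 start, 4.40 kb after the first, whose window held 1 CpG and none of the motifs. The Rian and Mirg starts follow 62.9 and 194 kb after the first Meg3 window. Among annotated microRNAs, 10 hairpins lay inside Mirg, 3 inside Rian, 1 inside Meg3 and none inside the other 4 genes. Mature forms numbered 19 in Mirg, 6 in Rian and 3 in Meg3, where they were miR-1906, miR-770-5p and miR-770-3p. In Meg3 the first starts at chr12:109544588 and the others at 109563710 and 109563744. The count of 1 hairpin there therefore does not account for all 3 forms. These matches describe letters in a window and locate no binding.

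Between P7 and P40 the noncoding RNAs did not move as a group. Miat fell, Snhg11 rose on both of its probe sets, and Malat1 and Meg3 each had probe sets that rose and probe sets that fell. In limma with Benjamini-Hochberg adjustment over all 15381 probe sets, 7 of the 29 member probe sets were called higher at P40 and 5 lower, at an adjusted p under 0.05. Over all tested probe sets 26.0% were called higher and 15.9% lower, so the members' shares of 24.1% and 17.2% lay near the background. The arrays of P7 and P40 did not overlap on 15 of the 29 probe sets, against 53.1% of all tested probe sets. The median log2 difference was 0.55 over the members and 0.18 over all tested probe sets. The F test over the 5 ages called 18 of 29, against 44.6% of all.

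Each called difference is given with its moderated standard error (SE), and each value is a GCRMA log2 value. With pooled cells, fewer cells that express a gene and less RNA per cell cannot be told apart. Probe sets differ in how strongly they bind, so levels were compared between ages within a probe set and not between probe sets. The probe sets were not placed along their transcripts or checked for strand. Opposite courses on Malat1 or Meg3 therefore describe single probe sets, and their source was not tested. The suffix s_at marks a probe set whose probes match several transcripts, x_at probes that may cross-hybridize, and a_at probes shared by alternative transcripts of a gene.

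**Figure D1:**
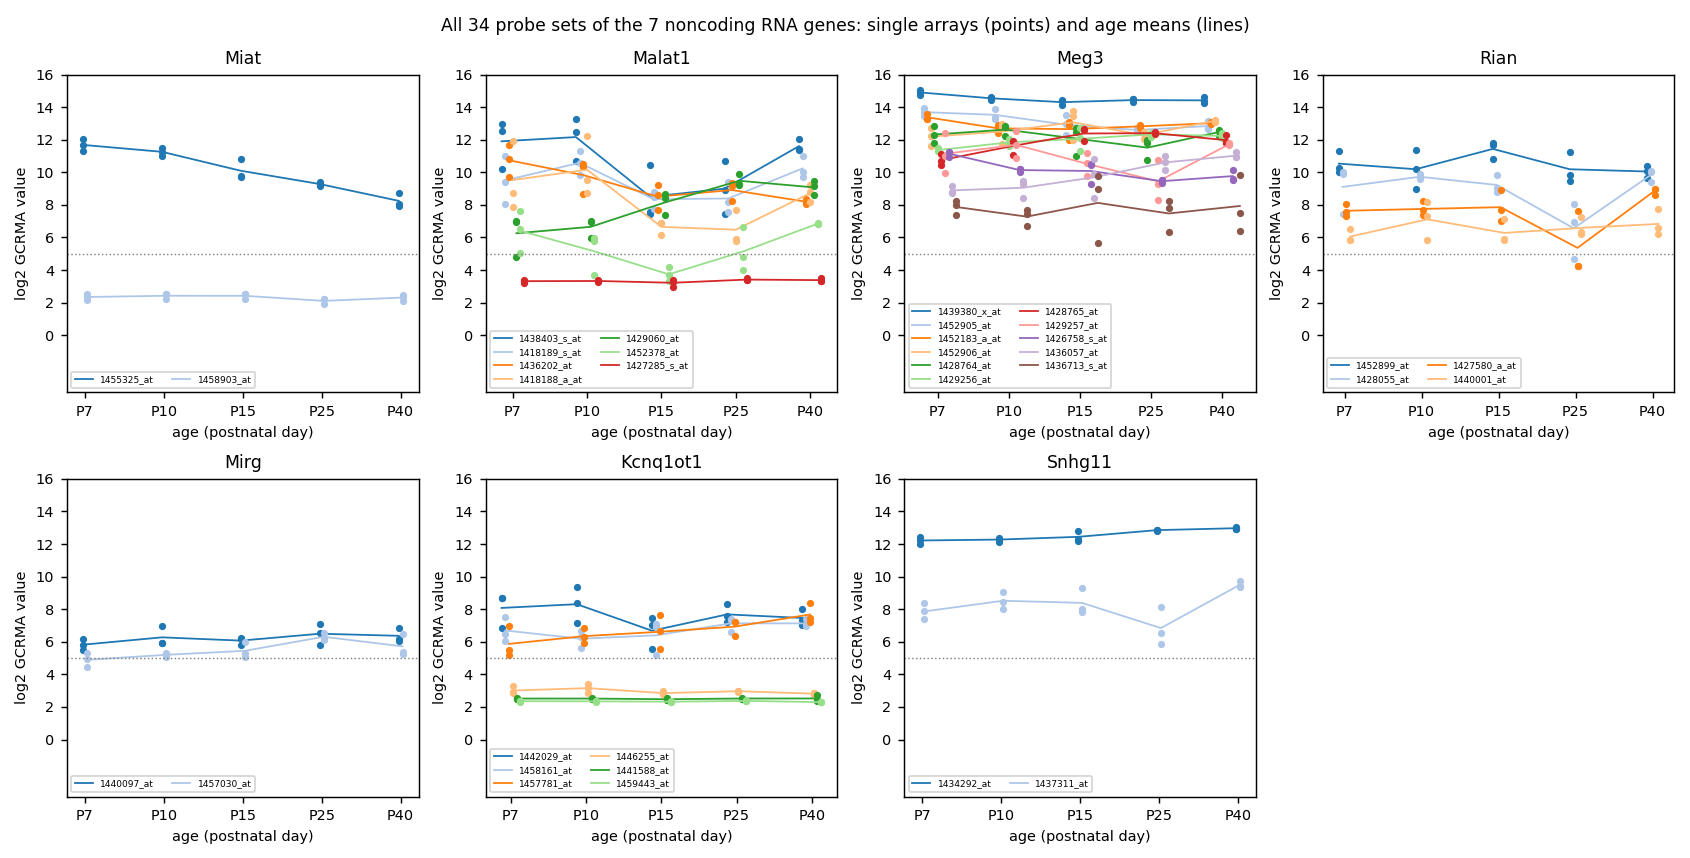
Log2 GCRMA value (vertical axis) against age (horizontal axis, 5 ages evenly spaced) for all 34 probe sets of the 7 genes, with 1 panel per gene; points are single arrays, lines join the means of 3 arrays and the dotted line marks 5, the background limit. The Miat probe set above the limit runs downward from 11.68 at P7 to 8.25 at P40, while lines in opposite directions share the Malat1 and Meg3 panels.

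**Figure D2:**
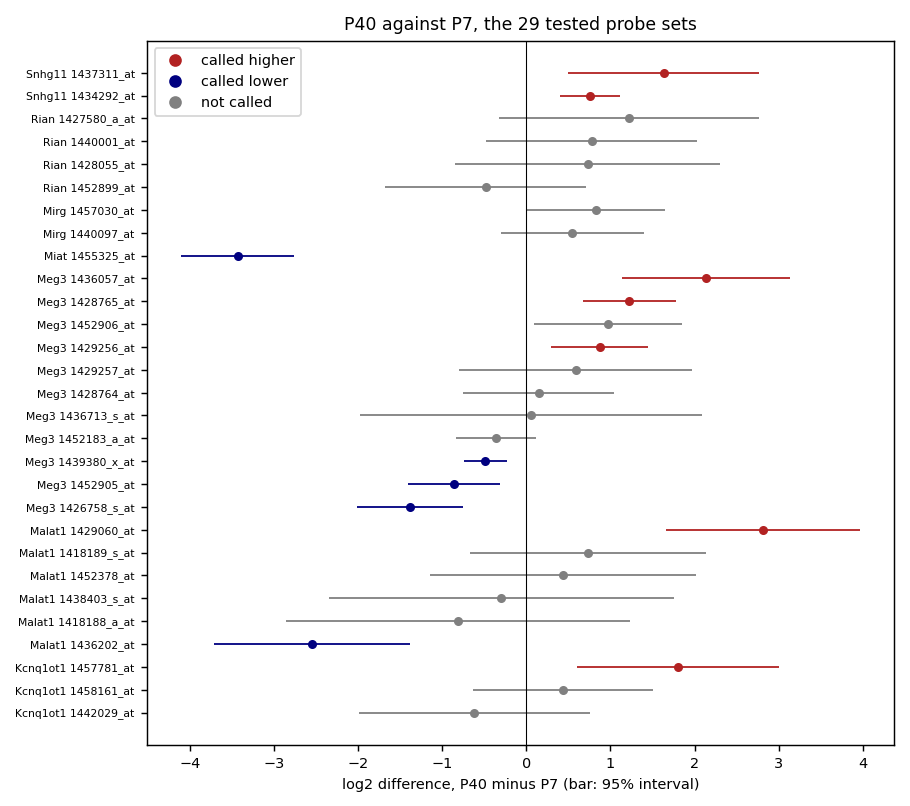
Log2 difference P40 minus P7 (horizontal axis) for each of the 29 tested probe sets (vertical axis), as points with 95% intervals from limma; red points were called higher, blue points lower and grey points not called. The 12 called probe sets have intervals that leave out 0, with Miat farthest to the left at -3.43 and Malat1 1429060_at farthest to the right at 2.81.

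Miat, the neuron-enriched nuclear RNA, had the largest difference between P7 and P40 of the 29 probe sets. On probe set 1455325_at the P7 arrays read 11.31, 11.68 and 12.05, and the P10 arrays 11.26, 11.51 and 11.00. The P15 arrays read 9.73, 9.75 and 10.81, the P25 arrays 9.40, 9.16 and 9.27, and the P40 arrays 8.08, 8.73 and 7.94. All P40 arrays lay below all P25 arrays, all P25 arrays below all P15 arrays and all P15 arrays below all P10 arrays, while P10 and P7 overlapped. Miat fell by 3.43 on the log2 scale from P7 to P40, a 10.8-fold decrease (SE 0.31, 95% interval -4.10 to -2.76, limma adjusted p = 2.0e-06). Of the 4 steps between neighbouring ages, that from P10 to P15 (-1.16) was called (SE 0.31, limma adjusted p = 0.034). The steps from P7 to P10 (-0.42, limma adjusted p = 0.57), P15 to P25 (-0.82, 0.17) and P25 to P40 (-1.03, 0.12) were not called. The P15 step lost its call without P10 replicate 1 (-1.16) or 2 (-1.03), or without P15 replicate 1 (-0.98) or 2 (-0.99), and was -0.46 with the number of picked cells as a covariate. The P7 to P40 fall kept its call under every setting tried. The other Miat probe set, 1458903_at, was not tested, because it stayed between 1.89 and 2.56.

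Malat1, the speckle RNA, gave a different course on different probe sets. All 6 tested probe sets differed between ages by the limma F test. Between P7 and P40 only 1429060_at was called higher and only 1436202_at lower. The difference was 0.73 on 1418189_s_at (95% interval -0.67 to 2.13), and 1.70 and called with picked cells as a covariate. On 1418188_a_at it was -0.81 (95% interval -2.86 to 1.24) and on 1452378_at 0.43 (95% interval -1.15 to 2.01). On 1429060_at the P7 arrays read 4.81, 6.93 and 7.04, the P10 arrays 5.98, 6.98 and 7.0, and the P15 arrays 7.38, 8.43 and 8.64. It then read 9.24, 9.92 and 9.27 at P25 and 9.44, 9.17 and 8.61 at P40. Every array from P15 on lay above every array of P7 and P10, and P7 replicate 1 was under the background limit. The rise from P7 to P40 was 2.81 (SE 0.54, 95% interval 1.66 to 3.97, limma adjusted p = 0.00092), or 2.09 without P7 replicate 1, when it was still called.

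On 1436202_at the P7 arrays read 9.72, 10.84 and 11.66 and the P10 arrays 10.31, 10.49 and 8.68. The later values were 7.71, 8.62 and 9.19 at P15, 8.25, 9.16 and 9.32 at P25 and 8.34, 8.04 and 8.19 at P40. The P40 arrays lay close together and below all P7 arrays, whose own spread was wide. From P7 to P40 it fell by 2.55 (SE 0.55, 95% interval -3.72 to -1.38, limma adjusted p = 0.0020). Within each array the value of 1429060_at minus that of 1436202_at ran from -4.91 to -3.92 at P7 and from 0.42 to 1.13 at P40. That difference moved by 5.36 on the log2 scale between these ages. The pair was chosen after its values were seen, and its change is given without a test. Where these probe sets lie on the Malat1 transcript was not checked.

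A further course was lowest at P15 and P25. On 1438403_s_at the P10 arrays read 12.48, 13.30 and 10.71 and the P15 arrays 10.47, 7.46 and 7.55. It read 10.21, 12.51 and 12.98 at P7, 8.89, 7.43 and 10.67 at P25 and 12.01, 11.46 and 11.34 at P40. P10 and P15 did not overlap, though P10 replicate 3 and P15 replicate 1 lay close together, and the 3 P40 arrays were back within the range of P7. From P10 to P15 it fell by 3.67 (SE 0.96, 95% interval -5.72 to -1.62, limma adjusted p = 0.031). Probe set 1418188_a_at fell by 3.51 in the same step (SE 0.96, limma adjusted p = 0.036) and 1418189_s_at by 2.24 (SE 0.66, limma adjusted p = 0.046). With Miat these were 4 member probe sets called lower among 29, against 2.46% of all tested probe sets, and 0 were called higher, against 7.52%. Of the 4, 3 read the same gene, Malat1, so they are not 4 separate results. The median difference in this step was -0.13 over the members and 0.19 over all tested probe sets.

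The calls of these 3 Malat1 falls depended on single arrays. Leaving out P10 replicate 1 or 2 or P15 replicate 2 or 3 ended the call on 1438403_s_at (-3.20 to -3.10, or -3.51 without P10 replicate 1) and on 1418188_a_at (-3.83 to -2.48). For 1418189_s_at the loss of any of 10 arrays ended the call, with values between -2.60 and -1.88. Without P15 replicates 2 and 3, the arrays with low hybridization controls, 1438403_s_at differed by -1.69, 1418188_a_at by -3.27 and 1418189_s_at by -1.76. That fit leaves 1 array at P15, assumed to vary like the other ages, so its lack of calls says nothing about the differences. With the number of picked cells as a covariate the same differences were -2.14, -1.31 and -0.53, again with no call. From P25 to P40 the difference on 1438403_s_at was 2.61 (limma adjusted p = 0.22), and its P40 minus P7 difference was -0.30 (95% interval -2.35 to 1.75).

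Probe set 1452378_at stood nearer to the background limit, with 5.07, 6.54 and 7.61 at P7, 3.72, 3.3 and 4.19 at P15 and 6.89, 6.82 and 6.82 at P40. All 3 P15 arrays were under the limit and all P40 arrays above it. No contrast between P7 and P40 or between neighbouring ages was called for it. Probe set 1427285_s_at was not tested and stayed between 2.97 and 3.50. Over the 15 arrays, Pearson's r between pairs of the 6 tested Malat1 probe sets ran from -0.53 to 0.89 over 15 pairs, with a median of 0.47 and 4 pairs below 0. These r describe the same 15 arrays, which share their ages and their amplification.

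**Figure D3:**
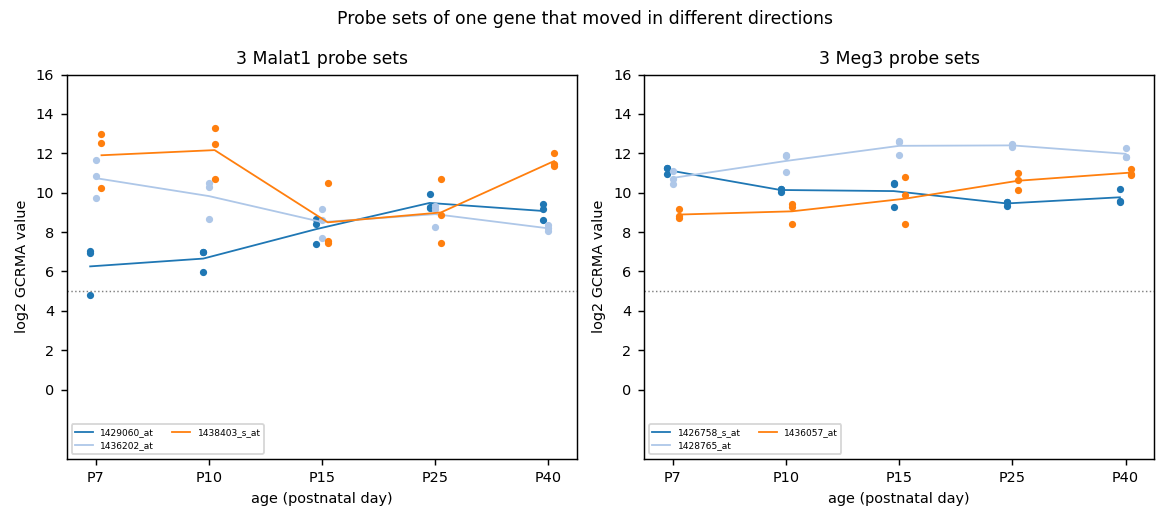
Log2 GCRMA value (vertical axis) against age (horizontal axis) for 3 Malat1 probe sets (left panel) and 3 Meg3 probe sets (right panel), chosen for their differences; points are arrays, lines join means of 3 and the dotted line marks 5. In the left panel 1429060_at climbs from 6.26 at P7 to 9.07 at P40 while 1436202_at drops from 10.74 to 8.19; in the right panel 1426758_s_at drops from 11.15 to 9.77 while 1436057_at climbs from 8.89 to 11.02.

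Meg3, the first transcript of the maternal Dlk1-Dio3 unit, had 11 tested probe sets, of which 3 were called higher and 3 lower at P40 than at P7. Its brightest, 1439380_x_at, read 14.76, 15.03 and 14.91 at P7 and 14.24, 14.61 and 14.39 at P40, with age means between 14.30 and 14.54 from P10 to P25. The 3 P7 arrays were the highest of all 15, and the P10 arrays lay just above the P15 arrays, while P25 and P40 overlapped with both. This probe set fell by 0.49 (SE 0.12, 95% interval -0.74 to -0.23, limma adjusted p = 0.0053), the smallest called difference among the members, and was not called without the variance trend. No Meg3 probe set was called in any step between neighbouring ages.

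The largest Meg3 rise was on 1436057_at, with 8.80, 8.71 and 9.15 at P7, 8.42, 9.29 and 9.45 at P10 and 8.40, 9.89 and 10.80 at P15. It read 10.65, 11.01 and 10.16 at P25 and 10.91, 10.93 and 11.23 at P40. The P15 arrays spread over the whole range from the P7 level to the P40 level, and the 3 P40 arrays lay above all P7 arrays. The rise was 2.13, or 4.39-fold (SE 0.47, 95% interval 1.13 to 3.13, limma adjusted p = 0.0023). The calls of all 3 Meg3 rises were lost with the 3′ to 5′ actin difference as a covariate, at values given after the single genes. Probe set 1428765_at rose by 1.22 (SE 0.26, limma adjusted p = 0.0018), from 11.10, 10.70 and 10.46 at P7 to 11.83, 12.26 and 11.84 at P40. Its P15 and P25 arrays, between 11.92 and 12.64, were also above every P7 array. Probe set 1429256_at rose by 0.87 (SE 0.27, limma adjusted p = 0.018), from 11.36 ± 0.10 to 12.24 ± 0.16, and lost its call without P7 replicate 2 (0.84) or P40 replicate 3 (0.79).

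In the other direction, 1426758_s_at read 11.24, 10.96 and 11.24 at P7 and 10.20, 10.20 and 10.02 at P10. It then read 9.29, 10.49 and 10.46 at P15, 9.52, 9.33 and 9.52 at P25 and 9.54, 10.17 and 9.59 at P40. All P7 arrays lay above all later arrays. From P7 to P40 it fell by 1.38, a 2.61-fold decrease (SE 0.29, 95% interval -2.01 to -0.76, limma adjusted p = 0.0018). It kept its call under every setting that included this probe set, which the fit with 1 probe set per gene did not. Probe set 1452905_at fell by 0.86, from 13.69 ± 0.23 to 12.84 ± 0.26 (SE 0.25, limma adjusted p = 0.015). That call was lost without P7 replicate 2 (-0.74), P40 replicate 1 (-0.77) or P40 replicate 3 (-0.79), and with picked cells as a covariate (-0.67). Within each array, 1436057_at minus 1426758_s_at ran from -2.44 to -2.09 at P7 and from 0.76 to 1.63 at P40, a change of 3.52 that is given without a test because the pair was chosen on its values.

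The other 5 Meg3 probe sets were not called between P7 and P40 in the main fit. On 1452906_at the difference was 0.98 with an interval of 0.10 to 1.86 (limma adjusted p = 0.071), and on 1452183_a_at it was -0.36 with an interval of -0.84 to 0.12. The arrays of P7 and P40 did not overlap on either. Probe set 1452906_at was called higher with array weights (1.14) and without P7 replicate 3 (1.25), P10 replicate 1 (0.98) or P15 replicate 1 (0.98). Probe set 1452183_a_at was called lower with equal array medians (-0.58). The differences on 1429257_at, 1428764_at and 1436713_s_at were 0.59, 0.14 and 0.06, and 1436713_s_at had the widest spread, with 5.65, 8.97 and 9.75 on the 3 P15 arrays. Over the 55 pairs of Meg3 probe sets, r over the 15 arrays ran from -0.68 to 0.89, with 17 pairs below 0. The mean of the 11 probe sets differed by 0.26 between P7 and P40 (limma adjusted p = 0.51, over gene means).

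Rian, the small nucleolar RNA host downstream of Meg3, had no probe set called between P7 and P40 in the main fit. On 1427580_a_at that difference was 1.22 (95% interval -0.33 to 2.77) without overlap of the arrays, and it was called without P25 replicate 3. On 1440001_at it was 0.78 (-0.47 to 2.03), and 1.63 and called with picked cells as a covariate. The differences on 1428055_at and 1452899_at were 0.73 (-0.85 to 2.31) and -0.48 (-1.68 to 0.71). However, 2 of the 4 Rian probe sets were lower at P25 than at P40. On 1427580_a_at the P25 arrays read 4.23, 4.23 and 7.63 and the P40 arrays 8.97, 8.64 and 8.98. The values were 7.57, 8.05 and 7.30 at P7, 7.39, 7.66 and 8.21 at P10 and 7.69, 6.98 and 8.90 at P15. P25 replicates 1 and 2 were under the background limit, and P25 replicate 3 lay within the range of the younger ages. The rise from P25 to P40 was 3.50 (SE 0.72, 95% interval 1.95 to 5.05, limma adjusted p = 0.031).

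On 1428055_at the P25 arrays read 4.70, 6.93 and 8.06 and the P40 arrays 10.06, 9.43 and 10.01. Earlier it read 7.42, 9.90 and 9.99 at P7, 9.61, 9.69 and 9.88 at P10 and 8.81, 9.05 and 9.81 at P15. P25 replicate 1 was again the lowest array, and P7 replicate 1 lay between the P25 replicates 2 and 3. The rise from P25 to P40 was 3.27 (SE 0.74, 95% interval 1.69 to 4.85, limma adjusted p = 0.041). From P15 to P25 the differences were -2.66 on 1428055_at (limma adjusted p = 0.057) and -2.50 on 1427580_a_at (limma adjusted p = 0.068), neither called. Taken as the mean of its 4 probe sets, Rian fell by 1.52 from P15 to P25 (limma adjusted p = 0.028) and differed by 1.72 from P25 to P40 (limma adjusted p = 0.066).

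Snhg11 1437311_at, described with its gene below, was the remaining member called between P25 and P40. Thus 3 of 29 member probe sets were called higher in that step, against 1.27% of all tested probe sets, and 0 were called lower, against 0.468%. The P25 and P40 arrays did not overlap on 15 of 29 member probe sets, against 25.1% of all. Of these 15, 6 were of Meg3 and 4 of Malat1, and probe sets of one gene are not separate results. They also went both ways: Miat 1455325_at and Meg3 1428765_at were lower at P40 and the rest higher. None of the 3 calls held without P25 replicate 1 or 2. Without P25 replicate 1 the differences on 1427580_a_at, 1428055_at and Snhg11 1437311_at were 2.93, 2.34 and 2.50, and without P25 replicate 2 they were 2.93, 3.45 and 2.15, none of them called. Leaving out any P40 array also ended all 3 calls, with differences of 3.44 to 3.61, 3.16 to 3.47 and 2.54 to 2.72, while without P25 replicate 3 they were 4.63, 4.02 and 3.31 and stayed called. Rian 1428055_at further lost its call without P7 replicate 2, P10 replicate 2, P15 replicate 2 or P15 replicate 3, each time at 3.27, and with equal array medians. The P25 arrays also had the lowest actin 3′ values, though not the lowest Gapdh 3′ values, and the highest oligodendrocyte sums. Their astrocyte sums, 28.4 to 41.2, were high too but overlapped those of P10, 26.7 to 38.2. The part of any of these in the differences was not tested.

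**Figure D4:**
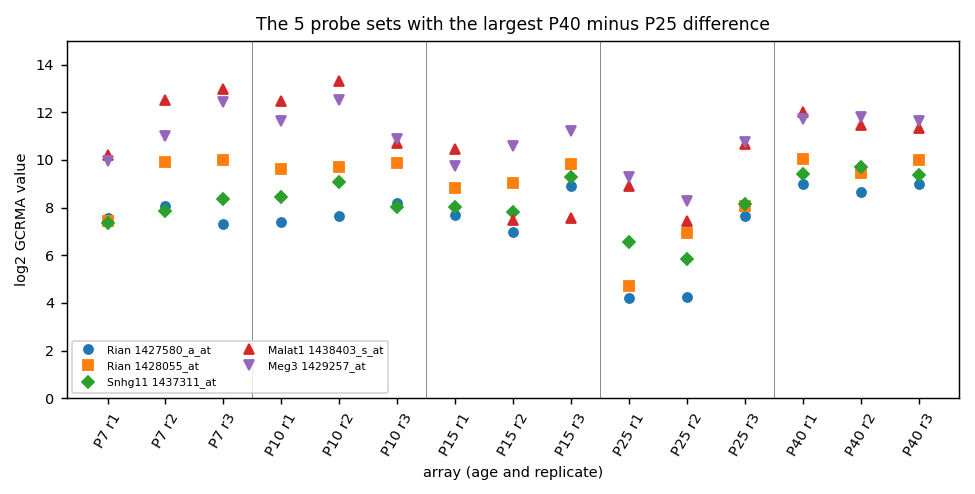
Log2 GCRMA value (vertical axis) of 5 member probe sets on each of the 15 arrays (horizontal axis, age and replicate, r for replicate); these are the 5 with the largest P40 minus P25 differences, so their values at those ages were used to choose them, and vertical lines separate the ages. On P25 replicate 1 the 2 Rian probe sets stand at 4.23 and 4.70 and on P25 replicate 2 at 4.23 and 6.93, while the 3 P40 arrays are close together for every probe set shown.

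The remaining Rian probe sets followed other courses. The brightest, 1452899_at, read 10.82, 11.80 and 11.68 at P15 against 11.22, 9.86 and 9.48 at P25 and 9.65, 10.40 and 10.10 at P40, so that P15 overlapped with P25 but not with P40. It was not called in any contrast of the main fit, and neither was 1440001_at, which lay between 5.82 and 8.18. Mirg, the microRNA host at the end of the unit, stood just above background. Probe set 1440097_at ran from 5.49 to 7.09 over the 15 arrays and 1457030_at from 4.43 to 6.56. On 1457030_at the P7 arrays read 4.43, 4.95 and 5.29 and the P25 arrays 6.56, 6.24 and 6.11, with no overlap. The P40 minus P7 difference was 0.55 on 1440097_at (95% interval -0.31 to 1.40, limma adjusted p = 0.29). On 1457030_at it was 0.83 (95% interval 0.01 to 1.65, limma adjusted p = 0.098). No Mirg contrast was called in the main fit, but this last difference was called with picked cells as a covariate (1.21). No member probe set was called from P7 to P10 or from P15 to P25, where 2.77% and 4.24% of all tested probe sets were called.

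Kcnq1ot1, the antisense RNA of the Kcnq1 domain, rose on 1 of its 3 tested probe sets. On 1457781_at the P7 arrays read 5.18, 5.49 and 6.94, the P10 arrays 5.92, 6.28 and 6.84 and the P15 arrays 5.54, 6.65 and 7.64. The P25 arrays read 7.21, 7.24 and 6.34 and the P40 arrays 8.35, 7.18 and 7.49. The P40 arrays lay above all P7 arrays, though P40 replicate 2 and P7 replicate 3 were close. The rise was 1.80 (SE 0.56, 95% interval 0.61 to 3.00, limma adjusted p = 0.019), and the call was gone when P7 replicate 1 (1.46), P7 replicate 2 (1.61) or P40 replicate 1 (1.47) was left out. On 1442029_at the difference was -0.62 (95% interval -1.99 to 0.76) and on 1458161_at 0.44 (95% interval -0.64 to 1.51), neither called. The F test called none of the 3, and the other 3 Kcnq1ot1 probe sets, not tested, stayed between 2.28 and 3.42.

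Snhg11, the neuronal host RNA, rose between P7 and P40 on both probe sets. On 1434292_at the P7 arrays read 12.40, 11.99 and 12.26, the P10 arrays 12.11, 12.31 and 12.39 and the P15 arrays 12.17, 12.33 and 12.82. It read 12.88, 12.87 and 12.81 at P25 and 12.90, 13.06 and 12.94 at P40. The 3 younger ages overlapped, and all P40 arrays lay above all arrays of every earlier age. The rise was 0.75, or 1.68-fold (SE 0.17, 95% interval 0.39 to 1.11, limma adjusted p = 0.0026), and it was 0.46, not called, with the 3′ to 5′ actin difference as a covariate.

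On 1437311_at the P7 arrays read 7.37, 7.86 and 8.36, the P10 arrays 8.45, 9.07 and 8.03 and the P15 arrays 8.04, 7.83 and 9.29. The P25 arrays read 6.54, 5.83 and 8.15 and the P40 arrays 9.41, 9.72 and 9.36. P25 replicates 1 and 2 were the lowest of all arrays and the P40 arrays the highest. The rise from P7 to P40 was 1.63 (SE 0.53, 95% interval 0.50 to 2.77, limma adjusted p = 0.023), and that from P25 to P40 was 2.65 (SE 0.53, limma adjusted p = 0.028). The P7 to P40 call was lost without P7 replicate 1 (1.39) or 2 (1.63) or without P40 replicate 1 (1.68) or 2 (1.52), and after quantile normalization (1.40). Averaged over both probe sets, Snhg11 rose by 1.19 (limma adjusted p = 0.0053, over gene means), and Miat was the only other member called between P7 and P40 on that scale. From P15 to P25 the Snhg11 probe sets moved apart, by 0.41 on 1434292_at (limma adjusted p = 0.20) and -1.54 on 1437311_at (limma adjusted p = 0.12). Neither step was called, and r between these probe sets over the 15 arrays was 0.14.

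The 3′ to 5′ actin difference was lower at P40 than at P7 on every array. With it as a covariate in limma, the rise on Malat1 1429060_at (3.03) and the 5 lower calls, from -3.65 on Miat to -0.51 on Meg3 1439380_x_at, kept their calls. The other 6 higher differences kept their direction and lost their calls. They were 1.46 on Meg3 1436057_at, 0.77 on Meg3 1428765_at, 0.43 on Meg3 1429256_at, 0.46 on Snhg11 1434292_at, 1.42 on Snhg11 1437311_at and 1.41 on Kcnq1ot1 1457781_at. From P10 to P15 the calls were lost at -2.49, -2.91 and -1.81 on Malat1 1438403_s_at, 1418188_a_at and 1418189_s_at and at -1.31 on Miat, where the difference was no smaller than without the covariate. From P25 to P40 they were lost at 3.90 on Rian 1428055_at, 3.29 on Rian 1427580_a_at and 2.50 on Snhg11 1437311_at, the first of them larger than without it. A lost call here does not show how much of a difference goes with the 3′ to 5′ measure.

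By the course over the 15 arrays, the genes most like Miat 1455325_at were Tunar (r = 0.97), itself a neural noncoding RNA, Afap1 (0.97) and Tubb5 (0.96), a tubulin of immature neurons. For Malat1 1438403_s_at they were Grk3 (r = 0.98), Ankrd11 (0.95) and Hsp90b1 (0.95). For Snhg11 1434292_at they were Plcl1 (r = 0.94), Meg3 on 1436057_at (0.94) and Dennd5b (0.94). For Meg3 1439380_x_at they were Mfsd10 (r = 0.93), Med15 (0.91) and Sbf2 (0.91), and for Rian 1452899_at Klhl13 (0.91), Atxn7l3b (0.90) and Snrpd3 (0.90). For Kcnq1ot1 1442029_at they were Sgip1 (r = 0.90), Adgrl3 (0.90) and Grin2b (0.90), a glutamate receptor subunit. Mirg 1440097_at, near background, had the lowest values, with 1600014C10Rik (r = 0.79), Abhd16a (0.78) and Prepl (0.75). Each r is the highest among all tested probe sets of other genes and describes these 15 arrays, which share the ages, so no p is given.

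Genes that share a domain or a pathway with the members were read from the probe set with the highest mean of each gene. Counted by gene, 27.0% of the 9672 tested genes were called higher at P40 and 17.3% lower. Of 4 tested neighbours of the Dlk1-Dio3 domain, 1 was called: Dync1h1, a dynein heavy chain at the edge of the region, rose by 0.58 (SE 0.17, limma adjusted p = 0.016). The call was lost without P7 replicate 3 (0.45), P40 replicate 1 (0.54) or P40 replicate 3 (0.55), with equal array medians (0.36) and with picked cells as a covariate (0.48). Dlk1, the paternally expressed gene of the domain, stayed at background, between 2.16 and 3.46. Of 6 tested genes of the Kcnq1 domain, 3 were higher and 1 lower. Dhcr7, the last enzyme of cholesterol synthesis, fell by 3.76 (SE 0.45, limma adjusted p = 2.0e-05), from 10.82 ± 0.35 to 7.06 ± 0.97. Nap1l4 rose by 1.02 (limma adjusted p = 0.029) and Cd81 by 0.62 (limma adjusted p = 0.028). The Nap1l4 call was lost without P7 replicate 2 (0.73) or 3 (0.96) or any P40 array (0.95 to 1.07), and with picked cells as a covariate (0.72). The Cd81 call was lost without P7 replicate 2 (0.64) or 3 (0.55), without P40 replicate 2 (0.53) or 3 (0.60) and after quantile normalization (0.44) or with equal array medians (0.41). Kcnq1 itself stayed between 2.55 and 2.67, and Cdkn1c, the growth inhibitor silenced by Kcnq1ot1, between 2.45 and 5.79, so neither was tested.

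Among 26 other imprinted genes 8 were higher and 4 lower at P40, with a median difference of 0.40. Rasgrf1, a Ras exchange factor, rose by 5.83 (SE 0.36, limma adjusted p = 6.9e-08), from 7.60 ± 0.99 to 13.43 ± 0.28. Impact, a translation regulator, rose by 4.65 (SE 0.49, limma adjusted p = 6.1e-06), or by 2.49 as the mean of its probe sets. Inpp5f, an inositol phosphatase, fell by 1.03 (SE 0.18, limma adjusted p = 0.00046). Nnat, neuronatin, fell by 1.71 (SE 0.55, limma adjusted p = 0.022) to 4.05 ± 0.58, under the limit, and lost its call without P7 replicate 1 (-1.22), P40 replicate 2 (-1.73) or P40 replicate 3 (-1.41), or with values under 5 set to 5 (-0.76).

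Among 24 other long noncoding and host RNAs 3 were higher and 7 lower, with a median of -0.21. Snhg6 fell by 1.77 (SE 0.16, limma adjusted p = 1.6e-06) and Snhg5 by 3.15 (SE 0.46, limma adjusted p = 0.00011), whereas Snhg4 rose by 2.41 (SE 0.49, limma adjusted p = 0.0015). All 3 are small nucleolar RNA hosts, like Snhg11. Mir124a-1hg, the host of a neuronal microRNA, rose by 2.44 (SE 0.56, limma adjusted p = 0.0033). Neat1, the paraspeckle RNA transcribed beside Malat1, stayed at background, between 3.60 and 4.17, and was not tested.

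Among 24 proteins of nuclear speckles and paraspeckles 1 was higher and 6 lower, with a median of -0.25. Sfpq fell by 1.76 (SE 0.28, limma adjusted p = 0.00020) and Rbm14 by 1.10 (SE 0.23, limma adjusted p = 0.0019), both paraspeckle proteins, and the splicing factor Srsf5 rose by 1.96 (SE 0.51, limma adjusted p = 0.0069). As means of their probe sets the differences were -0.88 for Sfpq, called, and -0.52 for Rbm14, not called.

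Among 16 genes that process small nucleolar RNAs and microRNAs 3 were higher and 7 lower, with a median of -0.48. Naf1, an assembly factor of H/ACA particles, rose by 3.85 (SE 0.47, limma adjusted p = 2.3e-05), while Nop56, a box C/D core protein, fell by 1.00 (SE 0.18, limma adjusted p = 0.00061) and Ago1, which holds microRNAs, by 1.05 (SE 0.19, limma adjusted p = 0.00057). The mean of the Nop56 probe sets differed by -0.38, which was not called. Dkc1, the H/ACA pseudouridine synthase, rose by 1.27 on its brightest probe set (SE 0.41, limma adjusted p = 0.024), but the mean of its probe sets differed by -0.0074. That call was also lost without P7 replicate 2 (0.97) or 3 (1.09) or P40 replicate 1 (1.21) or 2 (1.22), and with picked cells as a covariate (0.87).

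Among 15 Polycomb and imprint chromatin genes 1 was higher and 6 lower, with a median of -0.56. Trim28, which keeps imprints methylated, fell by 1.11 (SE 0.16, limma adjusted p = 0.00010), and Dnmt1, the maintenance methyltransferase, fell by 2.02 (SE 0.30, limma adjusted p = 0.00014). Cbx7, a Polycomb reader, rose from background, 3.23 ± 0.26 at P7, to 7.24 ± 0.03 at P40 (limma adjusted p = 2.2e-07), a rise of at least 2.24 on the log2 scale when values under 5 were set to 5. With the 3′ to 5′ actin difference as a covariate the calls of Dync1h1 (0.33), Nap1l4 (0.47), Cd81 (0.49), Dkc1 (0.87), Srsf5 (0.89) and Snhg4 (1.73) were lost.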

How the data were processed

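The series holds 1 value per probe set for each of 15 arrays. The authors deposited log2 values made with GCRMA, per the submitters' processing notes; the version is not given in the sources used here. GCRMA corrects each probe for background by its sequence, normalizes between arrays and summarises probes into a probe set. Values were used as deposited, and ran from 0.51 to 16.13. Between 33.8 and 35.0% of probe sets exceeded 5 on each array. Probe sets were named from GEO's platform annotation. On arrays, precision is set by their number, 3 per age.

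All 15381 single-gene probe sets over 5 on at least 3 arrays were fitted in limma 3.58.1 (R 4.3.3) with 1 mean per age, empirical Bayes moderation (variance trend on) and 10 residual degrees of freedom. P40 was compared with P7, and each age with the one before it. P-values are two-sided and were adjusted by Benjamini-Hochberg within a contrast, with a call at an adjusted p under 0.05. Intervals are unadjusted 95% intervals. The code was tested on simulated data.

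The named genes were every member probe set, the 2 genes of each list with the lowest adjusted p among those called higher and the same for those called lower, and the 3 genes of highest correlation with each member's brightest probe set. The members and lists were chosen with earlier results of these data known. Figures used Python 3.11.15, pandas 2.3.3 and matplotlib 3.10.9. Replicate numbers do not pair the arrays, since each is a different animal. The series' 932 probe sets of several genes and 9160 of no gene were not used.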

Additional observations from a re-analysis of the deposited data

How the results depend on the processing

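The 19 called results of the members were recomputed under up to 12 other settings and with each of 15 arrays left out. Of 499 recomputed values all 499 kept their direction and 409 their call. Many could not change direction, since leaving out an array of an age outside the contrast leaves the difference as it was. The means of probe sets per gene were not among these values. On that scale P40 minus P7 was 0.05 for Malat1 (limma adjusted p = 0.95) and 0.26 for Meg3 (limma adjusted p = 0.51). The P40 minus P7 calls of Miat, Meg3 1426758_s_at and Malat1 1429060_at and 1436202_at held in every setting that included the probe set. As reported, 7 member probe sets were higher at P40 than at P7, 5 lower, 0 called from P7 to P10, 4 from P10 to P15, 0 from P15 to P25, 3 from P25 to P40 and 18 by the F test. With 1 probe set per gene, so at most 7 members, these counts were 1, 2, 0, 2, 0, 0 and 4, and with the mean of probe sets per gene 1, 1, 0, 1, 1, 0 and 3. With the 3′ to 5′ difference as a covariate they were 1, 5, 1, 0, 1, 0 and 16, with array weights 8, 5, 1, 7, 8, 11 and 23, and with picked cells as a covariate 10, 4, 0, 0, 3, 5 and 14. Without P15 replicates 2 and 3 together they were 8, 5, 2, 0, 0, 1 and 16. With no filter, 0 were called from P10 to P15 and 6 from P25 to P40, and with a filter at 7, 1 from P15 to P25. Quantile normalization and equal array medians each gave 1 call from P7 to P10. Leaving out 1 array gave 4 to 8 higher and 4 to 5 lower from P7 to P40, 0 to 2 from P7 to P10, 0 to 8 from P10 to P15, 0 to 3 from P15 to P25, 0 to 4 from P25 to P40 and 13 to 20 by the F test. The cause of these moves was not tested. For most of these settings the share called among all tested probe sets was not counted. The counts therefore show how far the calls move and not whether the members differ from the background. Of all calls for P40 minus P7, 62.0% were higher, against 52.9% after quantile normalization and 50.5% with equal array medians, which moved the median of all probe sets from 0.18 to 0.01 and -0.03. The mean of the Dkc1 probe sets reversed to -0.0074.

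Replicate numbers were shared across ages, but arrays with the same number did not deviate together: r ran from -0.42 to 0.28 over 30 pairs, with a median of -0.06. With the replicate block, the counts were 7, 5, 0, 0, 1, 3 and 19, so the 4 calls from P10 to P15 were lost and 1 was gained from P15 to P25. With 3 animals per age, probe sets near 5, such as those of Mirg, give little measure of a change.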
